A study of Mus musculus with 4 samples.

Results

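Genes named for tetratricopeptide repeats (Ttc) and armadillo repeats (Armc) were followed in testis RNA of Rfx2 mutant and control mice. They were chosen by gene symbol: a symbol that starts with Ttc or Armc and goes on with a number, leaving out Ttc8, Ttc21b, Ttc25 and Armc4, with an expression value of at least 1 FPKM (fragments mapped to a gene, scaled to its length and to the depth of the sample) in at least 2 of the 4 samples. Of the 53 symbols that matched, 4 were left out by name and 3 were too low, which left 46 genes, 37 Ttc and 9 Armc, among the 12985 genes that passed the same filter. None of the 46 passed it through the samples of 1 genotype only, and 44 had at least 1 FPKM in all 4 samples. The member nearest the limit was Ttc32, with 1.04 FPKM in mutant 1, 0.924 in mutant 2, 0.784 in control 1 and 1.07 in control 2. Of the 3 genes outside it, Ttc22 reached 1.58 FPKM in control 1 and at most 0.0562 in the other samples, Ttc36 reached at most 0.897 and Ttc9b at most 0.0991.

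RNA was sequenced from whole testes of male mice at postnatal day 24 (P24), from 2 Rfx2-/- samples (mutant 1 and 2) and 2 control samples (control 1 and 2), to find the genes that depend on RFX2. In the mutant allele a neomycin-resistance cassette replaces the exons that encode the DNA binding domain, through conventional targeting in embryonic stem cells, so the gene is disrupted in every cell of the animal and not only in germ cells. The labels call the controls wild type and the strain DBA, whereas the study's methods describe heterozygous mice on a mixed background, and this difference was not resolved. RNA of all testicular cells was extracted together.

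Tetratricopeptide and armadillo repeats are short helical motifs that stack into curved scaffolds and hold other proteins. Proteins with such repeats serve in many complexes, among them intraflagellar transport (IFT), the traffic of cargo along growing cilia and flagella, the assembly of axonemal dynein arms, Hsp90 chaperone cycles and ubiquitin ligases. RFX proteins bind a motif named the X-box, which lies in promoters of many ciliary genes, and the sperm flagellum starts to grow in round spermatids.

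The samples were similar in the number of genes at an FPKM of at least 1, which was 12557 to 12942. The files give no read numbers. The precision of a value within its own sample is given by the confidence interval of the authors. Its half-width was 2.49% to 47.1% of the FPKM over the 46 genes and 4 samples, with a median of 6.86%. Rfx2 itself measured 36.7 and 39.8 FPKM in the mutant samples versus 123 and 89.4 in the controls. RNA of the targeted gene thus remained in mutant testes at 36.0% of the control mean. The study reported that the mutant transcript is out of frame with an early stop, and that RFX2 protein was absent by Western blot. The log2 fold change was -1.43 (standard error, SE, 0.19, limma adjusted p = 0.00617, by the Benjamini-Hochberg method over all genes tested). That call was lost without control 1, at a log2 fold change of -1.20 and an adjusted p of 0.0628.

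Ttc18, Armc2, Ttc29 and Ttc16 were lower in mutant testes, with a limma adjusted p under 0.05. These 4 of 46 are 8.70%, against 2.52% of all genes tested, and 0 of 46 were higher, against 0.308% of all genes. At an unadjusted p under 0.05 in limma, 12 were lower, against 6.68% of all genes, and 0 were higher, against 2.01%. Because whole testes were sequenced, fewer cells of a type and less RNA per cell cannot be told apart. Over the 46 genes the median log2 fold change was -0.05, with 26 negative and 20 positive, and that of all genes tested was 0.03. Both mutant values were below both control values for 14 of the 46 genes (30.4%, against 15.2% of all genes) and above them for 5 (10.9%, against 16.3%), and the genotypes overlapped for 27. For 12 genes the intervals of both mutant samples lay below those of both control samples, against 7.6% of all genes. For 0 genes they lay above, against 3.35%. These intervals are per sample and do not measure the spread between samples of a genotype. For Ttc16 they did not overlap between the controls, at 44.3 to 47.6 FPKM in control 1 and 31.9 to 34.6 in control 2. With 2 samples per genotype an exact two-sided permutation test of a single gene cannot give a p below 0.333, so the calls rest on the spread that limma shares across genes.

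**Figure D1:**
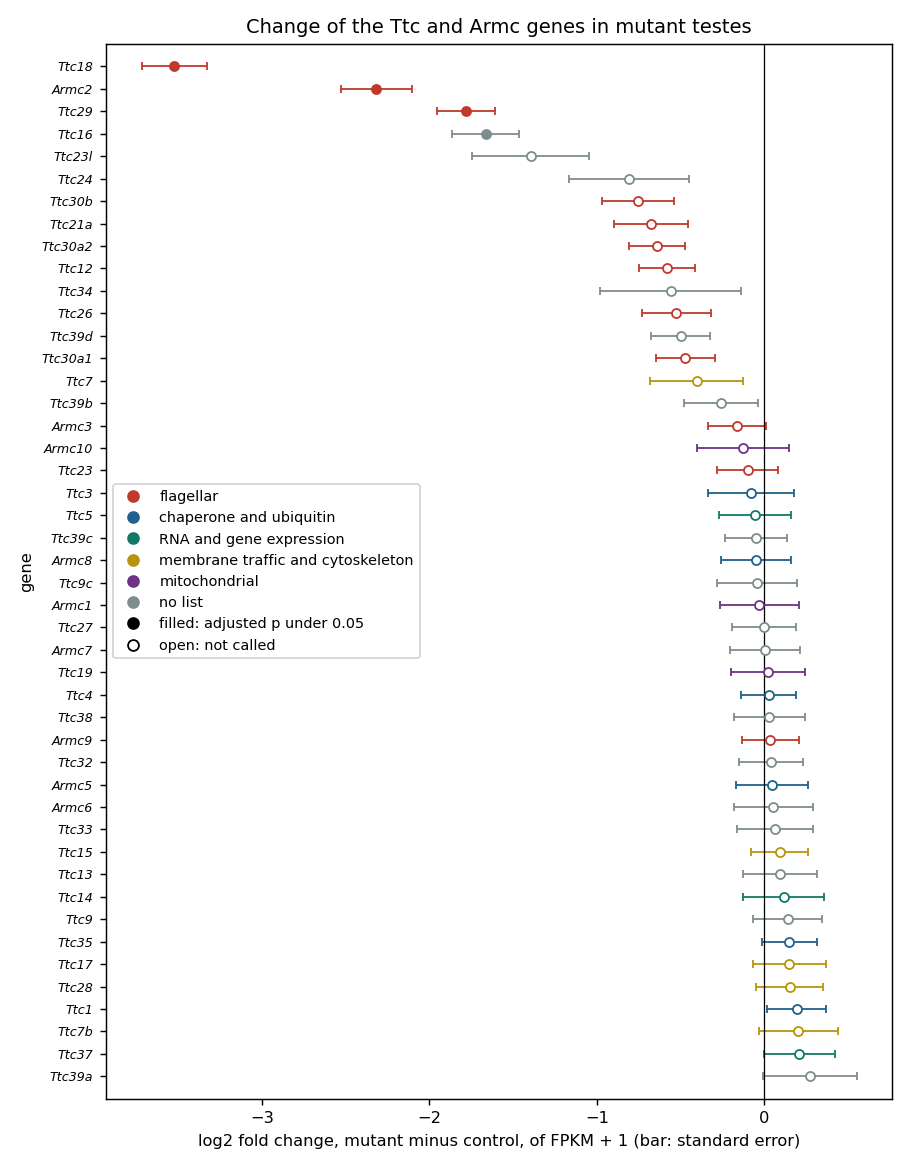
Log2 fold change (mutant minus control, on log2 of FPKM + 1) of each of the 46 genes, in order of size, with bars for the standard error. Filled points are the 4 genes with an adjusted p under 0.05, at -3.52 to -1.66, and colours give the role list of each gene. Most of the other genes lie near 0.

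Ttc18, now named Cfap70, encodes an axonemal protein that belongs with the outer dynein arms and is needed for sperm flagella. Its values were 3.65 and 5.08 FPKM in the mutant samples, against 60.0 and 60.5 in the controls, here and for the other genes in the order of the sample numbers. The genotypes lay far apart, and the control samples were nearly equal. The mutant mean was 7.25% of the control mean, a 13.8-fold difference, and the log2 fold change was -3.52 (SE 0.20, limma adjusted p = 5.12e-05). Ttc18 lies at chr14:21213412-21271448 on the minus strand of mm9, with up to 29 exons per transcript.

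Armc2 is needed for the central pair of microtubules in the sperm axoneme. Its values were 1.41 and 1.54 FPKM in the mutant samples versus 12.2 and 10.6 in the controls. Both mutant values were low and close together. The mutant mean was 13.0% of the control mean, 7.70-fold lower, with a log2 fold change of -2.32 (SE 0.21, limma adjusted p = 0.000849). The gene lies at chr10:41634796-41738248 on the minus strand of mm9.

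Ttc29 encodes another axonemal protein, which sperm need to swim. It had 18.4 and 20.4 FPKM in mutant 1 and mutant 2, and 75.9 and 63.0 in control 1 and control 2. Its RNA was lower in both mutant samples than in either control and remained at 28.0% of the control mean (log2 fold change -1.78, SE 0.17, limma adjusted p = 0.00109). Ttc29 spans chr8:80737196-80918225 on the plus strand of mm9.

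Ttc16 stood on no role list. It had 11.5 and 11.8 FPKM in the mutant samples versus 46.0 and 33.3 in the controls. The mutant samples were alike and the control samples were further apart. The mutant mean was 29.5% of the control mean (log2 fold change -1.66, SE 0.20, limma adjusted p = 0.00326), and without control 1 the adjusted p was 0.0568. Ttc16 lies at chr2:32612546-32631153 on the minus strand of mm9, and 6.31% of its exonic bases lie under exons of a gene on the other strand, Tor2a. The strand of the libraries is not given in the sources used here, so reads in that stretch cannot be assigned to either gene.

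Together the 4 genes made up 5.20% of the FPKM summed over all 46 genes in mutant 1 and 5.34% in mutant 2. In the control samples they made up 20.1% and 18.8%.

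**Figure D2:**
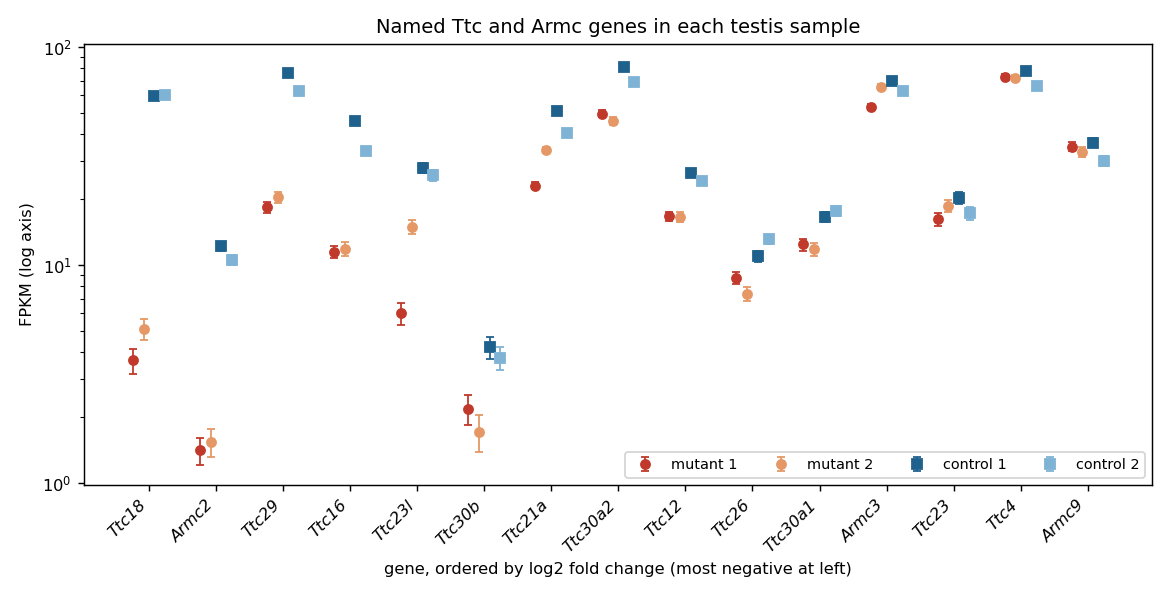
FPKM (log axis) of the 15 genes of the set named by rule in each of the 4 testis samples. Bars give the confidence interval of the authors within each sample, not the spread between samples. The mutant values of Ttc18, Armc2, Ttc29 and Ttc16 lie far below the control values, and those of Armc3, Ttc23, Ttc4 and Armc9 overlap with them.

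Of the 46 genes, 12 were on a list of genes known from cilia and flagella, and 3 of these were lower (Ttc18, Armc2 and Ttc29), against 2.52% of all genes tested. The genotypes did not overlap for 9 of the 12, each lower in the mutant samples, and these were also the 9 with an unadjusted p under 0.05 in limma. Over all genes the mutant samples lay below the controls for 15.2% and above them for 16.3%. At that unadjusted p in limma, 6.68% of all genes were lower and 2.01% higher. The log2 fold change was negative for 11 of the 12, with a median of -0.61. The 9 and the 11 both include Ttc30a1, Ttc30a2 and Ttc30b, which share much sequence, so their values may not be independent. Among the 34 genes off this list, 1 was lower (2.94%), the median was 0.02, and the mutant samples lay below the controls for 5 (14.7%) and above them for 5 (14.7%), near the 15.2% and 16.3% of all genes. The role lists were chosen with earlier results of these data known, so this split may follow those results and is a description only. The difference between the lists was not tested.

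The 6 flagellar genes that were not called but did not overlap between genotypes differed by less than the called genes. Ttc21a, a paralog of the IFT-A subunit gene Ttc21b that is needed for sperm flagella, had 23.1 and 33.8 FPKM in the mutant samples versus 51.0 and 40.2 in the controls (log2 fold change -0.68, SE 0.22, limma adjusted p = 0.280). Ttc12, which acts in the cytoplasm in the assembly of dynein arms, had 16.7 and 16.6 FPKM in the mutant samples versus 26.4 and 24.3 in the controls (log2 fold change -0.58, SE 0.17, adjusted p = 0.182). Its values within a genotype were close, and the mutant mean was 65.6% of the control mean. Ttc26, which encodes the IFT-B subunit IFT56, had 8.72 and 7.37 FPKM in the mutant samples versus 10.9 and 13.1 in the controls (log2 fold change -0.52, SE 0.21, adjusted p = 0.459).

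The Ttc30 genes encode another IFT-B subunit, IFT70, from 3 single-exon genes that lie side by side on the minus strand at chr2:75773920-75776519 (Ttc30b), chr2:75814129-75816257 (Ttc30a2) and chr2:75817163-75820024 (Ttc30a1) of mm9. Ttc30a2 was the most abundant, with 49.5 and 45.8 FPKM in the mutant samples versus 81.1 and 69.0 in the controls (log2 fold change -0.64, limma adjusted p = 0.123). Ttc30a1 had 12.4 and 11.8 FPKM against 16.6 and 17.7 (log2 fold change -0.47, adjusted p = 0.408). Ttc30b had 2.19 and 1.71 FPKM against 4.18 and 3.75 (log2 fold change -0.75, adjusted p = 0.176). The coding sequences of the 3 genes are 94.8% to 95.1% identical, and 61.7%, 41.5% and 36.7% of the 50-base windows in the coding transcripts of Ttc30a2, Ttc30a1 and Ttc30b also occur in transcripts of another gene, so the split between them is uncertain. Their sum does not depend on it as much: it was 64.1 and 59.3 FPKM in the mutant samples, 102 and 90.5 in the controls, and the mutant mean was 64.1% of the control mean. No other gene among the 45 of the set with coding transcripts shared over 1% of such windows, and Ttc28, which has none in this annotation, was not checked.

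The other 3 flagellar genes overlapped between genotypes. Armc3, one of the most abundant genes of the set and needed for normal sperm flagella, had 53.1 FPKM in mutant 1, 65.5 in mutant 2, 69.9 in control 1 and 62.7 in control 2 (log2 fold change -0.16, SE 0.17). Ttc23, which acts in Hedgehog signalling at the base of cilia, had 16.3 and 18.7 FPKM in the mutant samples versus 20.4 and 17.3 in the controls, a log2 fold change of -0.10 that was 0.012 without control 1. Armc9, a basal body protein of a gene mutated in Joubert syndrome, had 34.9 and 32.9 FPKM in the mutant samples versus 36.4 and 30.0 in the controls. Its log2 fold change of 0.04 was -0.0044 without mutant 1 and -0.10 without control 2. None of these differences was larger than its standard error. With 2 samples per genotype, small changes were not detectable for such genes.

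Genes on the remaining role lists had small fold changes. The chaperone and ubiquitin list held 6 genes, 0 of them called, with a median of 0.04 and log2 fold changes from -0.08 for Ttc3, a ubiquitin ligase, to 0.19 for Ttc1, a chaperone adaptor. Ttc4, an Hsp90 co-chaperone and the gene of the set with the highest mean, had 73.1 and 72.5 FPKM in the mutant samples versus 77.3 and 66.0 in the controls. Its log2 fold change was 0.03 (SE 0.16), and -0.086 without control 2. The 3 genes that act on RNA and gene expression ran from -0.05 for Ttc5, a cofactor that also binds nascent tubulin, to 0.21 for Ttc37, a subunit of the Ski complex of RNA decay. The 5 genes of membrane traffic and cytoskeleton ran from -0.40 for Ttc7 to 0.20 for Ttc7b, which both belong to the complex that anchors a phosphatidylinositol kinase at the plasma membrane. The 3 mitochondrial genes ran from -0.13 for Armc10 to 0.02 for Ttc19, which serves in respiratory complex III. In limma 0 genes of these 4 lists had an unadjusted p under 0.05 in either direction, against 6.68% of all genes lower and 2.01% higher. The 17 genes on no list ran from -1.66 for Ttc16 to 0.27 for Ttc39a. Of these 17, 3 had an unadjusted p under 0.05, all lower, against the same 6.68%.

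The mutant samples differed from each other more than the control samples did. They were over 0.5 apart on the log2 scale of FPKM + 1 for 7 of the 46 genes, and the control samples for 2. The standard deviation of the log2 difference over the 46 genes was 0.40 for the mutant pair and 0.31 for the control pair, and over all genes tested it was 0.47 and 0.35. Ttc23l had the widest gap, with 6.01 FPKM in mutant 1, 15.0 in mutant 2, 27.9 in control 1 and 25.8 in control 2. Both mutant values were below both controls, and mutant 1 was the lowest by far (log2 fold change -1.39, SE 0.35, limma adjusted p = 0.109). The gene was called with either mutant sample left out: the log2 fold change was -0.80 without mutant 1 (adjusted p = 0.0188) and -1.99 without mutant 2 (adjusted p = 4.86e-13). In these fits the lone mutant sample is assumed to vary like the controls, and a single residual degree of freedom can make such p-values far too small.

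Ttc24, Ttc34 and Ttc21a, of which the first 2 are named here after their values were seen, and Ttc39a, Ttc7 and Armc10 also differed between the mutant samples. Ttc24 had 0.454 FPKM in mutant 1, 2.20 in mutant 2, 3.15 in control 1 and 2.43 in control 2, and mutant 1 was the lowest by far. Ttc7 had 4.27 FPKM in mutant 1 and 7.85 in mutant 2, against 8.37 and 7.71 in the controls. The gap ran the other way for Ttc34 and Armc10. Ttc34 had 4.15 FPKM in mutant 1 and 1.74 in mutant 2, and its controls were further apart, at 2.74 and 7.17. Armc10 had 4.58 FPKM in mutant 1 and 2.66 in mutant 2, with 3.37 and 4.56 in the controls. Ttc39a was higher in mutant 2 than in any other sample, with 42.7 FPKM in mutant 1, 81.3 in mutant 2, 52.0 in control 1 and 45.6 in control 2. The log2 fold change of this gene was 0.73 without mutant 1 (limma adjusted p = 0.0327) and -0.18 without mutant 2, so of the fits run it was called higher only in the one without mutant 1. For the 4 called genes the mutant samples lay within 0.39 of each other on the log2 scale, and all 4 were called without mutant 1 and without mutant 2. Without mutant 2, 8 genes of the set were lower, against 7.30% of all genes, with Ttc21a, Ttc23l, Ttc24 and Ttc39d added.

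**Figure D3:**
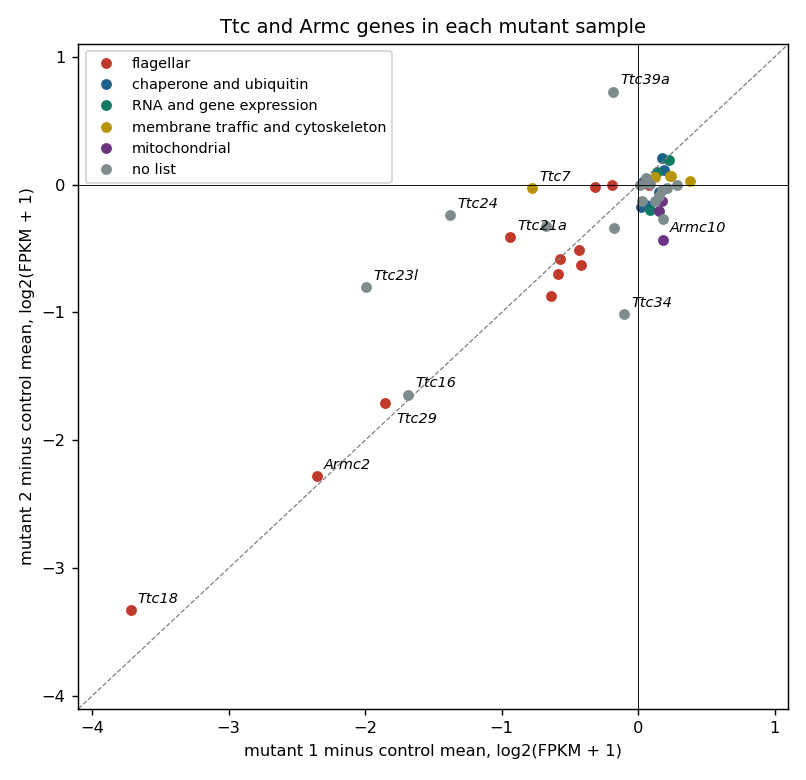
Difference of mutant 1 (horizontal) and of mutant 2 (vertical) from the control mean on log2 of FPKM + 1, 1 point per gene of the set and colours by role list. The dashed line marks equal values. Ttc18, Armc2, Ttc29 and Ttc16 lie near the line, Ttc23l and Ttc24 are lower in mutant 1, and Ttc39a is higher in mutant 2.

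Markers of spermatids moved with mutant 1. Transcripts of 12 round spermatid markers summed to 1154 FPKM in mutant 1 and 4239 in mutant 2. The controls had 4778 and 3296. Those of 12 elongating spermatid markers summed to 1949 and 5799 FPKM in the mutant samples and to 6187 and 4510 in the controls. The sums of mutant 2 lay between those of the controls, but a few very abundant markers such as Tnp1, Tnp2, Prm1 and Prm2 carry much of them. Marker by marker, mutant 1 was below both controls for 12 of 12 round and 12 of 12 elongating markers. Mutant 2 was above both controls for 7 of 12 round and 7 of 12 elongating markers and below both for 1 and 2. The median differences from the control mean on the log2 scale were -0.77 and -1.03 in mutant 1 and 0.26 and 0.33 in mutant 2. Spermatocyte markers summed to 1494 and 1411 FPKM in the mutant samples versus 1426 and 1430 in the controls, and Sertoli cell markers to 955 and 837 FPKM against 639 and 903. No marker of these 4 lists, and none of the lists for spermatogonia, Leydig cells, macrophages, peritubular and vascular cells, blood cells and multiciliated epithelium, was called in limma. On the list for multiciliated epithelium, Scgb1a1, a secretory airway epithelium marker, was at 0 in all samples. Foxj1, the regulator of motile cilia that testis also expresses, had 19.6 and 27.3 FPKM in the mutant samples versus 46.2 and 25.4 in the controls. Muc1 had 7.72 and 8.51 FPKM against 11.1 and 8.90, and Tppp3 had 5.72 and 5.48 against 6.89 and 5.16. Krt8 and Ccno were less abundant, and Myb and Krt18 were under the FPKM filter. The part of the markers in the values of the Ttc and Armc genes was not tested.

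**Figure D4:**
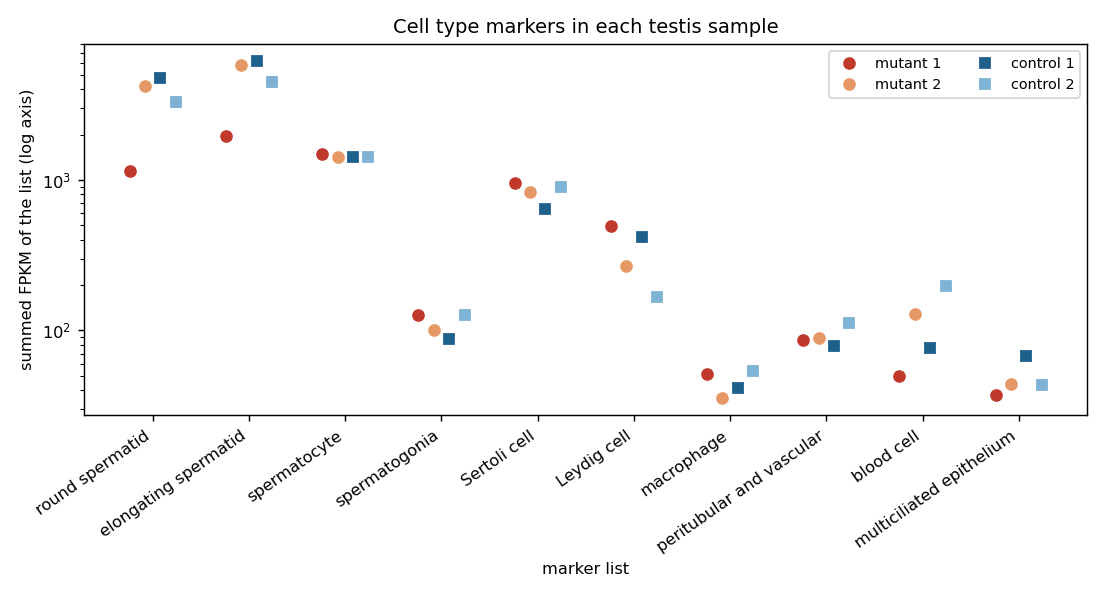
FPKM summed over the markers of each cell type (log axis) in each of the 4 testis samples. The sums of round and elongating spermatid markers are lowest in mutant 1, at 1154 and 1949, while those of mutant 2 lie between the control samples. The sums are weighted towards the most abundant markers.

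The partner genes were measured for comparison. Of 20 symbols of IFT genes 18 were tested. Of these, 1 was lower (5.56%, against 2.52% of all genes) and 2 were higher (11.1%, against 0.308%). Ift27, an IFT-B subunit, was lower (log2 fold change -0.86, limma adjusted p = 0.0478), whereas Ift74 and Ift81, which pair in the core of IFT-B and bind tubulin, had 0.94 (adjusted p = 0.0253) and 0.82 (adjusted p = 0.0453). With median-ratio scaling of the samples these 3 calls were lost, at adjusted p = 0.0866, 0.182 and 0.165, and the directions were kept. Over the 15 alternatives with a test Ift27 was called in 5, Ift81 in 5 and Ift74 in 10, and with either control sample left out none of them was called. The study reported Ift74 and Ift81 as upregulated in mutant mice by real-time PCR. The Ttc30 genes and Ttc26, which also encode subunits of IFT-B, were not called in limma. Of 15 symbols for the assembly of dynein arms, the process in which Ttc12 acts, 11 were tested and 0 were called. Of these, 4 had an unadjusted p under 0.05 in limma, all lower, against 6.68% of all genes. The nearest to the threshold was Dyx1c1 (log2 fold change -0.84, limma adjusted p = 0.0523). The study listed Dyx1c1 among its cilia genes, most of which it reported as downregulated by real-time PCR. None of 15 other co-chaperones with tetratricopeptide repeats, the nearest to Ttc4 and Ttc1, was called in limma. At an unadjusted p under 0.05, 1 of them was lower, a share near the 6.68% of all genes.

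Families that are likewise named for a repeat or domain also held lower genes. Of 126 Ccdc genes (coiled coils) 14 were lower (11.1%) and of 42 Lrrc genes (leucine-rich repeats) 6 (14.3%). Of 65 Wdr genes (WD repeats) 7 were lower (10.8%), and 0 of each family were higher. Over all genes tested 2.52% were lower and 0.308% higher. No difference between these families and the Ttc and Armc genes was tested, and the share of 8.70% leaves out 4 genes by name. Of these 4 genes 2 were called lower. Armc4 and Ttc25, which serve in the docking of outer dynein arms, had log2 fold changes of -2.58 (limma adjusted p = 0.00222) and -1.19 (adjusted p = 0.00717). Ttc8, a subunit of the BBSome, and the IFT-A gene Ttc21b had -0.72 (adjusted p = 0.244) and -0.04.

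Promoter sequences were examined because RFX proteins bind the X-box. RefSeq promoters, 250 bases before to 50 after each start, were found for 37 of the 46 genes. The X-box was searched as GTNRCC followed by RGYAAC, 0 to 3 bases apart, on both strands, the consensus given in the study's supplement. There N is any base, R a purine and Y a pyrimidine. A simple half-site was searched separately as GTTGCC or GGCAAC, which can lie within an X-box. A gene was counted if any of its promoters matched, and the tested genes here are the 9139 found with a promoter. The share of all promoters is per promoter, so it is a less like measure. An X-box without mismatch lay in 1 of the 37 (2.70%), that of Armc9, against 1.53% of all 32851 promoters and 2.44% of the tested genes. With up to 1 mismatch it lay in 9 (24.3%, against 11.3% of promoters and 15.2% of tested genes), and a half-site lay in 5 (13.5%, against 12.5% and 15.9%). The 100 bases before the start, and 20 after it where a match reaches there, are shown for the called genes that were matched, for Ttc30a2, Ttc26 and Ttc21a with their roles in IFT, for Ttc23l with its gap between the mutant samples, and for Armc9, whose RNA was not lower. Each runs 5′ to 3′ on the strand of its gene, in the RefSeq build GRCm38.p6, and capitals mark an X-box with up to 1 mismatch or a half-site.
Ttc18, chr14:20452206-20452325, minus strand: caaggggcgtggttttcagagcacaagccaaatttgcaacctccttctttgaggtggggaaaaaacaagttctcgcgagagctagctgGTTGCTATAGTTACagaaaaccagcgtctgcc
Ttc29, chr8:78213242-78213341, plus strand: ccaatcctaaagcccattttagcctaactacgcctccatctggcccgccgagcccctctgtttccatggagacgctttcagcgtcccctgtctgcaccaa
Ttc16, first promoter, chr2:32775340-32775439, minus strand: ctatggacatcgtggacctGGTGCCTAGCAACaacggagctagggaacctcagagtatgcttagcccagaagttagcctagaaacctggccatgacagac
Ttc16, second promoter, chr2:32775634-32775733, minus strand: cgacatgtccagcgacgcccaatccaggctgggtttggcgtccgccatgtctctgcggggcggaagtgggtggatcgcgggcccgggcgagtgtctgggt
Ttc23l, chr15:10558669-10558768, minus strand: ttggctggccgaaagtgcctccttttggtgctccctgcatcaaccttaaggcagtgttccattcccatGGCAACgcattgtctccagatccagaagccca
Ttc21a, chr9:119937506-119937625, plus strand: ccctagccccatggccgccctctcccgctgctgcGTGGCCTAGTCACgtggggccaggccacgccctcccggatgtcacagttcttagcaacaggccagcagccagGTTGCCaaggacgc
Ttc30a2, chr2:75978180-75978279, minus strand: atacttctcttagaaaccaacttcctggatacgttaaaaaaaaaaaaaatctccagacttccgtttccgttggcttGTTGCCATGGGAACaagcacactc
Ttc26, chr6:38381424-38381543, plus strand: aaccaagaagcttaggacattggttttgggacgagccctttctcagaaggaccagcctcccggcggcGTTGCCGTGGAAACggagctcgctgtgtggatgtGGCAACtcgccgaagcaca
Armc9, chr1:86154680-86154799, plus strand: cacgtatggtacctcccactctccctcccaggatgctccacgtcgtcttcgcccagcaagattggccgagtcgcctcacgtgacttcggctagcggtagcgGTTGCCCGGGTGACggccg

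One match in Ttc18 spans the start, from -12 to +2, and another lies at +25 to +37, beyond the bases shown. That in the first promoter of Ttc16 lies at -81 to -69. Neither the X-box with up to 1 mismatch nor the half-site occurs in the promoter of Ttc29, which fell to 28.0% of the control mean. Ttc30a2 has X-box matches at -24 to -11 and, before the bases shown, at -238 to -227. Ttc26 has an X-box match at -33 to -20 and a further half-site at +2 to +7. Armc9, with the match without mismatch at +2 to +15, was at 102% of the control mean. Matches with 1 mismatch also lay in promoters not shown, those of Ttc12, Ttc27 and Armc7. These genes had log2 fold changes of -0.58, -0.0026 and 0.0069. A match describes these letters in this window and not a bound site, and genes without one are not thereby shown to lack one elsewhere.

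The 46 genes lie on 19 chromosomes, and 3 of them (Ttc27, Ttc39d and Ttc7) lie on chromosome 17 with Rfx2. None of the 46 lies within 10 Mb of Rfx2 in mm9. Over 10% of the exonic bases lie under exons of a gene on the other strand for 3 genes, Ttc14, Armc5 and Ttc33, which had log2 fold changes of 0.12, 0.05 and 0.06.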

How the data were processed

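RNA-seq of 2 mutant and 2 control testis samples was analysed from the FPKM that the authors deposited per gene and sample with confidence bounds. The reads were aligned to mm9 with TopHat2 2.0.6, and Cuffdiff is named in the submitters' processing notes. FPKM are scaled for length and depth within a sample, and no scaling between samples was added. The pooled Cuffdiff comparison of the study cannot be made from FPKM.

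Entries that share a symbol were summed, giving 22311 symbols, and log2(FPKM + 1) was taken of the 12985 that reached 1 FPKM in at least 2 samples. The pseudocount of 1 understates the change of low genes. Genotypes were compared in limma 3.58.1 under R 4.3.3 by lmFit and by eBayes with the trend option. Tests were two-sided, p-values were adjusted by Benjamini-Hochberg over all genes, and 0.05 was the threshold. The functions were tested on simulated data. Other steps used python 3.11.15, pandas 2.3.3 and numpy 2.4.6.

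The members, role lists, partner lists and marker lists were chosen with earlier results of these data known. Named genes are Rfx2, called members, members changed at least 2-fold without overlap of the genotypes, the flagellar list, the 3 members with the highest mean FPKM, and the ends of each role list. Loci are from GENCODE vM1 on NCBIM37 (mm9). Promoters are from RefSeq on GRCm38.p6, 2 of the 37 matched through an older symbol, and 9 members were not matched (Armc2, Ttc30b, Ttc23, Ttc39c, Armc1, Ttc32, Armc5, Ttc14 and Ttc35). Each comparison was repeated with a pseudocount of 0.1 or 0.01, with no filter or one at an FPKM of 5, with median-ratio scaling, quantile normalization, no trend, robust eBayes, a replicate block, the highest entry per symbol, a ratio without a pseudocount, each sample left out in turn and 1 mismatch in the X-box. A crossed replicate block was added after the data had been seen.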

Additional observations from a re-analysis of the deposited data

How the results depend on the processing

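Ttc18, Armc2 and Ttc29 were lower in mutant testes under all 15 alternatives with a test, and Ttc16 under 14. The number of lower genes of the set was 4 in the comparison as reported and ranged from 3 to 8 with 1 sample left out, 8 without mutant 2 and 3 without control 1. For the flagellar list it ranged from 3 to 4, and the number of higher genes from 0 to 1 (Ttc39a without mutant 1). Over all genes, 199 were lower without a filter, 202 with a filter at an FPKM of 5, 206 with median-ratio scaling and 167 (without control 1) to 948 (without mutant 2) with 1 sample left out, where 327 were reported. The number of higher genes, reported as 40, was 17 without a filter, 17 at an FPKM of 5, 16 with median-ratio scaling, 67 with robust eBayes and 13 (without control 2) to 162 (without mutant 1) with 1 sample left out; it was 102 without mutant 2 and 17 without control 1. Rfx2 missed the threshold without a filter (log2 fold change -1.43, adjusted p = 0.0607 from limma) and with median-ratio scaling (-1.45, adjusted p = 0.0829), and ranged from -1.66 to -1.20 with 1 sample left out. The median of the set was 0.0089 with quantile normalization and 0.04 without mutant 2, and signs turned among genes near 0. With 1 sample left out Ttc23 ranged from -0.21 to 0.012 (without control 1), Ttc4 from -0.086 (without control 2) to 0.14, and Armc9 from -0.10 (without control 2; -0.0044 without mutant 1) to 0.17. The X-box share of 2.70% was 24.3% with up to 1 mismatch, which admits more letters. The causes of the other changes were not tested. Leaving out a sample or adding a block leaves 1 residual degree of freedom, so p-values of these fits can be far too small.

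Sample numbers 1 and 2 occur in both genotypes. Over the genes tested, samples that share a number deviated from their group means with a correlation of -0.15, so the numbers were not taken to pair them. With the replicate block 5 genes of the set were lower (Ttc23l was added) and 0 higher, 3 of the flagellar list were lower, and 525 genes were lower and 70 higher over all genes. With the crossed replicate block, chosen after the data had been seen, these numbers were 4, 0, 3, 266 and 28. The widest interval of the authors, 47.1% of the FPKM, was that of Ttc32, the member nearest the FPKM limit. The part of depth in this width was not tested.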
